A study of Mus musculus with 6 samples.

Results

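The 36 genes described here encode the ATF4-dependent stress response and the machinery that folds, or disposes of, proteins in the endoplasmic reticulum (ER). They were taken as a fixed list of symbols, chosen with earlier results of these data known. The symbols were matched to probe sets that the platform annotation pairs with a single symbol. All 36 were found among the 20239 named genes of the array. Of these, 11 form the ATF4 and amino acid arm, 21 the chaperone and ER-associated degradation (ERAD) arm, and 4 are the sensors Eif2ak3, Ern1 and Atf6 with the factor Xbp1. Expression was measured with 1-colour arrays in pericytes, the mural cells of capillaries, isolated from C57BL/6 mice. In 3 samples the cells had been given 100 ng/ml of PDGF-BB over 5 days, and the other 3 were controls of the same 5 days. PDGF-BB, a dimer of platelet-derived growth factor B chains, is the ligand by which endothelial cells recruit pericytes through the receptor PDGFR-β.

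The labels number the samples 1 to 3 in each group and do not say whether each came from its own isolation or culture, so the p-values rest on a spread between samples that could be technical only. The labels give neither the organ of origin nor what the controls received in place of PDGF-BB. Array medians over the named genes lay between 8.43 and 8.46 log2 units. A background level of 7.54 was set at the 90th percentile of the mean levels of 18 markers of erythroid cells, mast cells and lymphocytes, and 9 of 14 pericyte markers had means above it. Pdgfrb averaged 12.85 with PDGF-BB and 12.98 in controls, whereas Vtn, Zic1, Higd1b, Abcc9 and Des lay under the background level in both groups. Among the 9, Rgs5 (7.71 with PDGF-BB, 7.77 in controls) and Kcnj8 (7.63 and 7.85) lay close to that level. Both were lower than Cd3e (8.22 and 8.27), a lymphocyte marker of the background set. Of the pericyte markers 1 rose and 2 fell: Anpep, an aminopeptidase, averaged 10.09 with PDGF-BB and 9.22 in controls, Acta2, smooth muscle actin, 12.69 with PDGF-BB and 13.76 in controls, and Cd248, endosialin, 11.84 with PDGF-BB and 12.17 in controls (adjusted p = 0.0028, 0.024 and 0.040, limma). Markers of endothelial cells (3 of 12 above background) and epithelial cells (1 of 7) had no called member. The 12 macrophage markers held 2 that rose (Mpeg1 and Cd14) and 2 that fell (Cd68 and Lyz2). Lyz2 lay under the background level in both groups, and Mpeg1 did in controls. The summed level of the macrophage markers was 11.16 to 11.37 log2 units with PDGF-BB and 11.09 to 11.16 in controls. Over all genes 10.1% rose and 11.4% fell, and counts in marker lists this short are not read as a result. The part of these marker changes in the results below was not tested. In RNA from a whole culture, fewer cells of a type and less RNA per cell cannot be told apart.

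When amino acids are short or unfolded proteins fill the ER, kinases phosphorylate the translation factor eIF2α, general translation slows, and the mRNA of the transcription factor ATF4 is translated more. ATF4 then raises genes for amino acid uptake and synthesis, and factors that feed back on growth and on translation. Unfolded ER proteins also release ATF6, a membrane-bound factor cut in the Golgi, and IRE1, encoded by Ern1, which splices the Xbp1 mRNA. ATF6 and spliced XBP1 raise chaperones, disulfide isomerases and ERAD genes. ATF4 translation, ATF6 cleavage and Xbp1 splicing are not read by these arrays, which measure the level of each transcript.

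Short motifs known for these pathways were searched in the promoters of the genes. They are shown first because they make no use of the expression values. The genes were listed as members of these pathways, so the matches are no independent support for the grouping. Many genes of both arms held no match. RefSeq promoters on GRCm38.p6 (250 bases before to 50 bases after the annotated start) were at hand for 32 of the 36 genes, in 34 promoters. The genes without an entry were Atf6, Derl1, Hyou1 and Manf. Both strands were searched. The ER stress response element (ERSE), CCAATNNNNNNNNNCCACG, at which ATF6 acts together with the factor NF-Y, was present in 9 promoters, each of a different chaperone or ERAD gene, out of 18 such genes with a promoter. Over all 32851 promoters of the table it occurred in 39 (0.119%). None of the 11 ATF4 arm genes, and neither Eif2ak3, Ern1 nor Xbp1, held it. The matches are given 5′ to 3′ in the reading direction of the motif, with the fixed letters of the motif in capitals and 5 flanking bases on each side.
Hspa5: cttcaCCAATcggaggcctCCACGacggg
Dnajc3: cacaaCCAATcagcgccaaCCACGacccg
Pdia6: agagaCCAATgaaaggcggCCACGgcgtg
Creld2: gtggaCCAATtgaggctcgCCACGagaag
Hsp90b1, far: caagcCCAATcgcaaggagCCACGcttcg
Hsp90b1, near: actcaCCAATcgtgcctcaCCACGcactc
Calr: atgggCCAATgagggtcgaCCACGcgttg
Canx: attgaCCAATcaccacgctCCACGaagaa
Syvn1: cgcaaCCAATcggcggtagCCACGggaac
Derl3: gctagCCAATggggaagtcCCACGgtaga

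These stretches lie on GRCm38.p6 at chr2:34772020-34772048 (plus strand, Hspa5), chr14:118937822-118937850 (plus, Dnajc3), chr12:17266486-17266514 (plus, Pdia6), chr15:88819515-88819543 (minus, Creld2) and chr8:84847070-84847098 (plus, Calr). The others are at chr10:86705633-86705661 (minus, Hsp90b1, far), chr10:86705528-86705556 (plus, Hsp90b1, near), chr11:50325795-50325823 (minus, Canx), chr19:6046527-6046555 (plus, Syvn1) and chr10:75893237-75893265 (minus, Derl3). The near end of the element lay between 26 bases (Syvn1) and 194 bases (the far element of Hsp90b1) upstream of the start. The 250 bases upstream of Hspa5, which encodes BiP, the main Hsp70 of the ER lumen, are printed because Hspa5 is the standard reporter gene of the response, with the fixed letters of the ERSE in capitals (chr2:34771840-34772089, plus strand).
Hspa5 upstream: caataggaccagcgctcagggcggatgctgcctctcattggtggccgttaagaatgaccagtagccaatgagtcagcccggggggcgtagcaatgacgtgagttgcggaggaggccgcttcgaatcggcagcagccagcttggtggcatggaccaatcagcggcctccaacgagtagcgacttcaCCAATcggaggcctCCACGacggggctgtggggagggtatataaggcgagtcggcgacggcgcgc

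The C/EBP-ATF response element (CARE), TGATGNAA, through which ATF4 acts with a C/EBP partner, was present in 4 of the 11 ATF4 arm genes and in 1 of the 18 chaperone and ERAD genes with a promoter. It occurred in 1304 of all 32851 promoters (3.97%), so it is a far commoner word than the ERSE. In the sequences below, the fixed letters of the motif are in capitals with 8 flanking bases on each side.
Asns: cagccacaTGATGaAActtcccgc
Trib3: cgcccggcTGATGtAAacctgagc
Atf3: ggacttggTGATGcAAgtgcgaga
Nupr1: gccctgtcTGATGcAAtctggccc
Herpud1: gtgcgggcTGATGcAAcccgccgt

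On GRCm38.p6 they lie at chr6:7693217-7693240 (minus, Asns), chr2:152344031-152344054 (plus, Trib3), chr1:191183428-191183451 (plus, Atf3), chr7:126625565-126625588 (plus, Nupr1) and chr8:94386309-94386332 (minus, Herpud1). The match of Trib3 lies 15 to 22 bases after the start, and the others lie upstream. The stretch upstream of Asns is printed because Asns had the largest change of the 36 genes (chr6:7693210-7693459, minus strand, with the fixed letters of the CARE in capitals).
Asns upstream: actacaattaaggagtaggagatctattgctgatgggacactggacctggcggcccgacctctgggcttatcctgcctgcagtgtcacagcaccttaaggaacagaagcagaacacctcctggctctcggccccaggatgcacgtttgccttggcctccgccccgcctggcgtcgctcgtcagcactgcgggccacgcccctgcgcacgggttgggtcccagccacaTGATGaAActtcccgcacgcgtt

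A shorter element, ERSE-II, with the letters ATTGGNCCACG, was present in Herpud1, with its near end 42 bases upstream, and in Dnajb11, 8 to 18 bases after the start, and in 12 of all promoters (0.0365%). Herpud1 was the single gene with 2 kinds of match, and they did not overlap. The element TGACGTGG, bound by XBP1 and ATF6, was in none of the 34 promoters and in 222 of all promoters (0.676%). A match describes letters in a window and shows no binding.

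**Figure D1:**
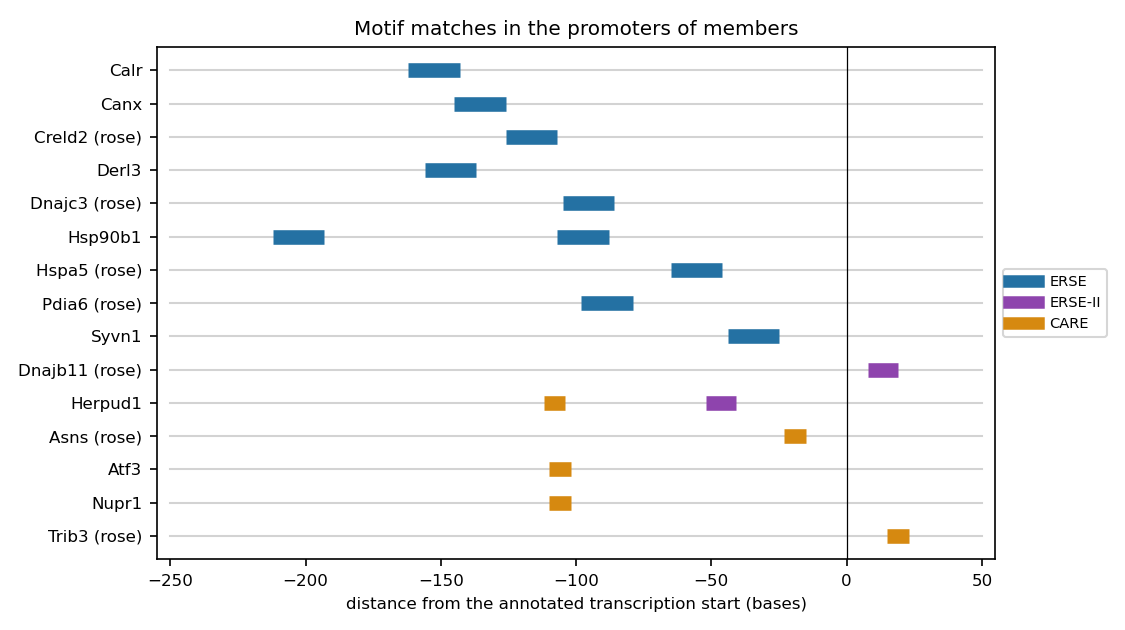
Position of each motif match (coloured blocks) along the promoters of the 15 genes that held one; the x axis is the distance in bases from the annotated transcription start, and genes that rose with PDGF-BB are marked. ERSE matches (blue) are all in chaperone and ERAD genes, 4 of the 9 with a rise, CARE matches (orange) are in 4 ATF4 arm genes and Herpud1, and ERSE-II matches (purple) are in Dnajb11 and Herpud1.

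With PDGF-BB, 17 of the 36 genes rose and 1, Ppp1r15a, fell in limma's moderated test at a Benjamini-Hochberg adjusted p under 0.05. Over all 20239 genes 21.5% were called, 10.1% higher and 11.4% lower. This fit did not use the replicate number. With that number as a block, 19 of the 36 genes and 4741 of all genes were called. The median log2 change (PDGF-BB minus control) of the 36 genes was 0.29, against -0.02 over all genes. On 22 genes the 3 PDGF-BB arrays all lay above the 3 control arrays, and on 1 they all lay below. Such separations were seen in 37.6% of all genes, 16.9% upward and 20.6% downward. All 36 genes had mean levels above the background level in each group.

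**Figure D2:**
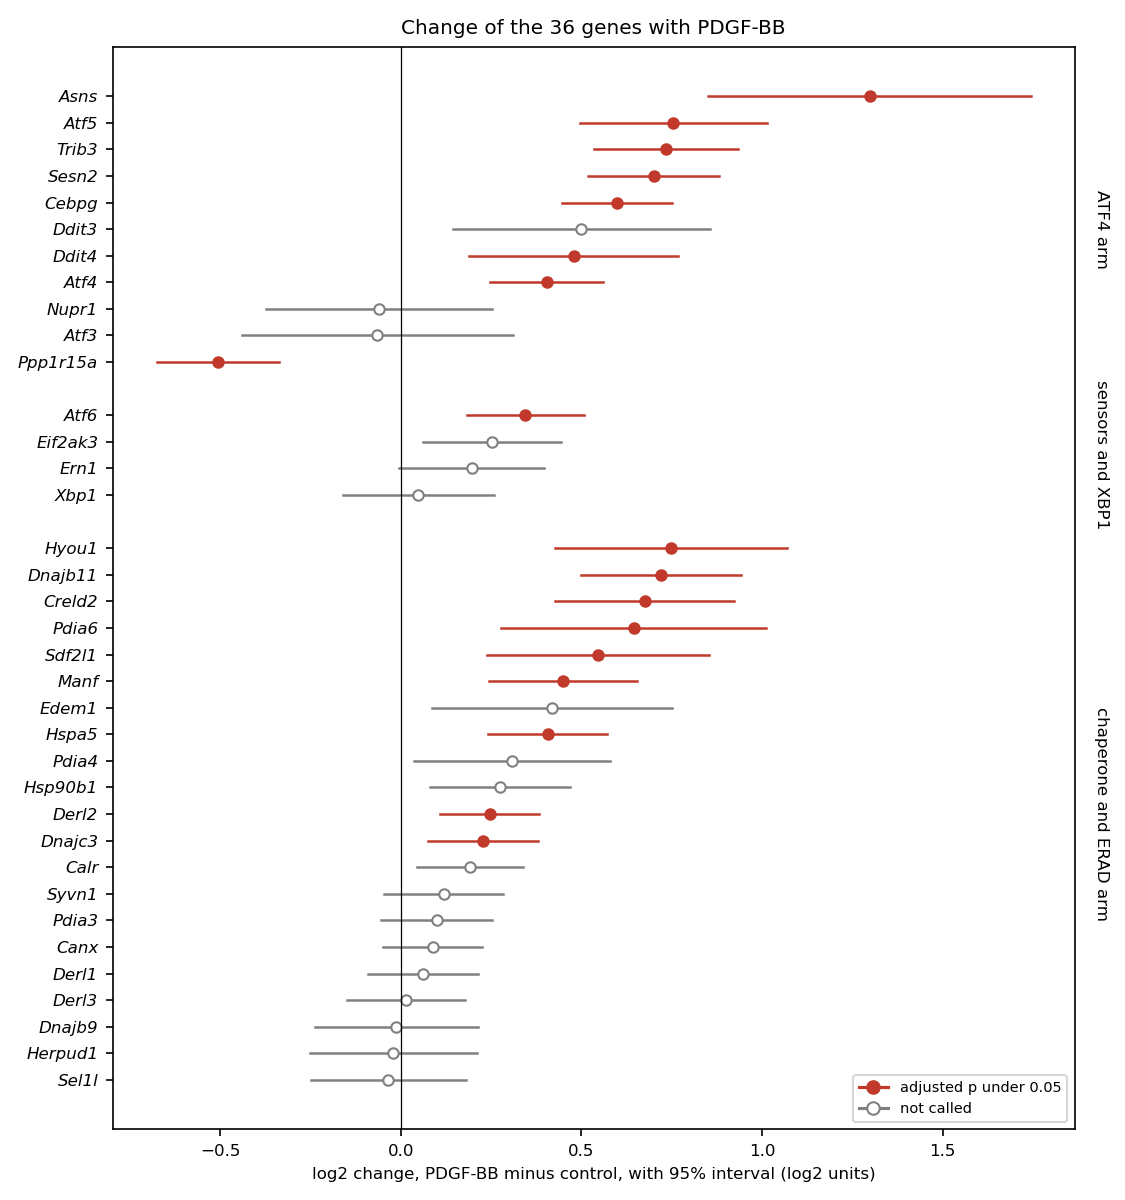
Log2 change of each of the 36 genes with PDGF-BB relative to control (x axis, log2 units), with 95% intervals from the limma fit (n = 3 each) and the arms set apart; filled red points passed at an adjusted p under 0.05. Asns stands furthest right at 1.30 and Ppp1r15a furthest left at -0.51, and the ERAD genes Derl1, Derl3, Herpud1 and Sel1l sit near 0.

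In the ATF4 arm 7 of 11 genes rose and 1 fell, with a median log2 change of 0.50. Among the transcription factors, Atf4 itself read 9.96, 9.99 and 10.13 log2 units on the PDGF-BB arrays and 9.66, 9.58 and 9.63 on the control arrays. The groups did not overlap, and Atf4 rose 1.32-fold (log2 change 0.40, SE 0.07, adjusted p = 0.0064, limma, n = 3 each). Atf5, a related factor whose mRNA is also under eIF2α-dependent translation, read 10.25, 10.12 and 10.41 with PDGF-BB and 9.57, 9.31 and 9.64 in controls. Its groups did not overlap, and it rose 1.69-fold (log2 change 0.76, SE 0.11, adjusted p = 0.0044). Cebpg, a C/EBP factor that dimerises with ATF4, read 9.37, 9.41 and 9.36 with PDGF-BB and 8.87, 8.77 and 8.70 in controls, a rise of 1.51-fold with a narrow spread (SE 0.06, adjusted p = 0.0019).

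The 3 other factors of the arm were not called. Ddit3, which encodes CHOP, a factor tied to prolonged ER stress and cell death, read 9.97, 10.10 and 10.36 with PDGF-BB against 9.39, 9.63 and 9.91 in controls. Every PDGF-BB value lay above every control value, but the spread was wide and the adjusted p was 0.056 (log2 change 0.50, 95% interval 0.14 to 0.86). With the replicate number as a block Ddit3 passed (adjusted p = 0.0048), and its adjusted p over all alternatives ranged from 0.0048 to 0.16. Atf3, a stress-induced factor of the same family, read 8.49, 8.61 and 8.28 with PDGF-BB and 8.31, 8.87 and 8.39 in controls, with overlapping groups (log2 change -0.07, 95% interval -0.44 to 0.31). Nupr1, a small chromatin protein of the stress response, ranged from 11.06 to 11.12 with PDGF-BB and from 10.92 to 11.46 in controls (log2 change -0.06, 95% interval -0.37 to 0.25). Both genes hold a CARE match in their promoters, as do Asns and Trib3, which rose.

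Asns, asparagine synthetase, had the largest change of the 36 genes. Its values were 12.37, 12.29 and 12.48 on the PDGF-BB arrays, against 11.54, 10.76 and 10.95 on the control arrays. Control array 1 was the highest of the controls and still lay below every PDGF-BB array. Asns rose 2.46-fold (log2 change 1.30, 95% interval 0.85 to 1.74, adjusted p = 0.0043, limma). The 3 growth and signalling inhibitors of the arm all rose. Trib3, a pseudokinase that restrains AKT and ATF4, read 8.75, 8.80 and 8.83 with PDGF-BB and 8.24, 7.99 and 7.96 in controls (1.66-fold, SE 0.08 on the log2 scale, adjusted p = 0.0022). Sesn2, a leucine-binding inhibitor of mTORC1 that is also a p53 target, read 10.43, 10.25 and 10.49 with PDGF-BB and 9.65, 9.67 and 9.75 in controls (1.62-fold, SE 0.08, adjusted p = 0.0020). Ddit4, another mTORC1 inhibitor, read 10.04, 9.88 and 10.06 with PDGF-BB and 9.75, 9.27 and 9.52 in controls. Its rise of 1.39-fold (adjusted p = 0.032) was lost without any 1 of the arrays except control array 1, and with quantile normalization repeated (adjusted p = 0.010 to 0.10 over all alternatives).

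Ppp1r15a, which encodes GADD34, the stress-induced subunit that directs the phosphatase PP1 to eIF2α, was the only one of the 36 genes that fell. It read 8.98, 8.86 and 9.06 on the PDGF-BB arrays and 9.51, 9.41 and 9.50 on the control arrays. The groups were apart by more than the range within either, and Ppp1r15a was 1.42-fold lower with PDGF-BB (log2 change -0.51, SE 0.07, adjusted p = 0.0039, limma). Its constitutive relative Ppp1r15b, which is not one of the 36, moved the other way, at 10.18, 10.17 and 10.30 with PDGF-BB and 9.55, 9.80 and 9.61 in controls (1.48-fold higher, adjusted p = 0.0042).

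**Figure D3:**
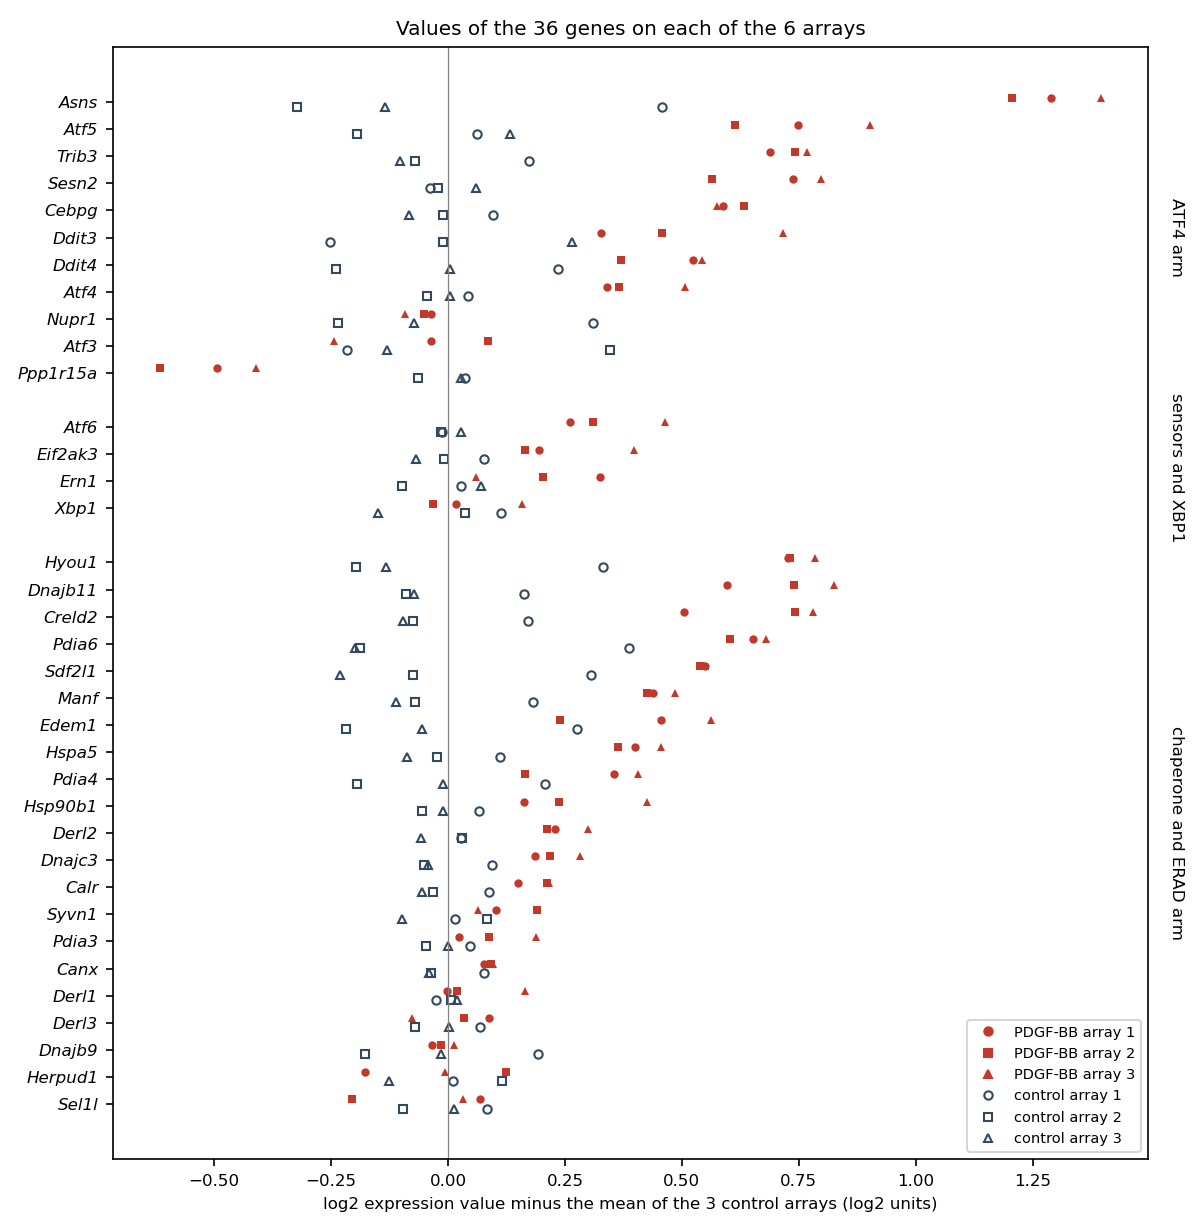
Value of each of the 36 genes on each array (x axis, log2 expression value minus the mean of the 3 control arrays for that gene); red filled symbols are PDGF-BB arrays, open symbols control arrays, and the shape gives the replicate number. PDGF-BB arrays lie together to the right for the genes that rose, and control array 1 (open circle) is the highest control for 17 of the 21 chaperone and ERAD genes.

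Of the sensors, Atf6 alone rose. Its values were 10.86, 10.90 and 11.06 with PDGF-BB and 10.58, 10.58 and 10.62 in controls, a 1.27-fold rise (log2 change 0.35, SE 0.07, adjusted p = 0.013, limma). Eif2ak3, which encodes the eIF2α kinase PERK, read 9.79, 9.76 and 9.99 with PDGF-BB and 9.67, 9.58 and 9.52 in controls. Its groups did not overlap, but it was not called (log2 change 0.25, 95% interval 0.06 to 0.44, adjusted p = 0.069). Ern1 read 11.28, 11.16 and 11.02 with PDGF-BB and 10.99, 10.86 and 11.03 in controls, with overlap (log2 change 0.20, 95% interval -0.01 to 0.40). Xbp1, a substrate of IRE1 and itself induced by ATF6, overlapped between the groups, at 12.74, 12.69 and 12.88 with PDGF-BB and 12.83, 12.76 and 12.57 in controls. Its log2 change was 0.05 (95% interval -0.16 to 0.26).

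The chaperone and ERAD arm had 9 rises among 21 genes, no fall, and a median log2 change of 0.25. By role, 3 of 3 other lumenal proteins rose, 2 of 3 Hsp70 and Hsp90 chaperones, 2 of 3 DnaJ co-chaperones, 1 of 3 disulfide isomerases, 1 of 7 ERAD genes and 0 of 2 lectin chaperones, differences between roles that were not tested. Hspa5 read 13.20, 13.17 and 13.26 on the PDGF-BB arrays and 12.91, 12.78 and 12.72 on the control arrays, a rise of 1.33-fold (log2 change 0.41, SE 0.07, adjusted p = 0.0075, limma). Hyou1, a large Hsp70 relative that exchanges nucleotide on BiP, had the largest change of the arm. Its values were 11.68, 11.68 and 11.74 with PDGF-BB and 11.29, 10.76 and 10.82 in controls, a rise of 1.68-fold (SE 0.14 on the log2 scale, adjusted p = 0.0094). Hsp90b1, the ER Hsp90 known as GRP94, read 13.02, 13.09 and 13.28 with PDGF-BB and 12.92, 12.80 and 12.84 in controls. Its groups did not overlap and it narrowly missed the threshold (log2 change 0.28, adjusted p = 0.054, and 0.036 to 0.15 over the alternatives).

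Among the 3 DnaJ co-chaperones of BiP, 2 rose and 1 was not called. Dnajb11, which presents unfolded clients to BiP, read 10.99, 11.13 and 11.22 with PDGF-BB and 10.55, 10.30 and 10.32 in controls (1.65-fold higher, adjusted p = 0.0030, limma). Dnajc3, also called p58IPK, read 11.46, 11.49 and 11.56 with PDGF-BB and 11.37, 11.22 and 11.23 in controls. Its small rise of 1.17-fold (adjusted p = 0.047) was lost with the replicate block (0.080), and in 8 of 12 alternatives in all, among them the loss of any 1 array except control array 1 (0.031 to 0.13). Dnajb9, a co-chaperone that in mouse and human cells is a typical target of spliced XBP1, ranged from 11.48 to 11.52 with PDGF-BB and from 11.33 to 11.70 in controls, a log2 change of -0.01 (95% interval -0.24 to 0.21).

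Small lumenal proteins rose in all 3 cases. Creld2, a disulfide isomerase-like protein secreted under ER stress, read 11.93, 12.17 and 12.21 with PDGF-BB and 11.60, 11.35 and 11.33 in controls (1.60-fold, adjusted p = 0.0053, limma). Manf, a secreted factor that binds BiP, read 11.09, 11.07 and 11.13 with PDGF-BB and 10.83, 10.58 and 10.54 in controls (1.37-fold, adjusted p = 0.012). Sdf2l1, a partner of DnaJ proteins, was nearly constant on the PDGF-BB arrays at 11.05, 11.04 and 11.05, and spread over 10.81, 10.43 and 10.27 in controls (1.46-fold, adjusted p = 0.026). The spread of Sdf2l1 lay in the controls, where array 1 was highest. Among the disulfide isomerases Pdia6, which also limits the activity of the sensors, rose 1.56-fold, at 11.62, 11.57 and 11.65 with PDGF-BB and 11.36, 10.78 and 10.77 in controls (adjusted p = 0.026). The calls of Sdf2l1 and Pdia6 were lost without any 1 array except control array 1 (adjusted p up to 0.080 and 0.081, and 0.0026 and 0.0013 without control array 1).

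Pdia4 read 13.08, 12.89 and 13.13 with PDGF-BB and 12.93, 12.53 and 12.71 in controls, with overlap, and was not called (log2 change 0.31, adjusted p = 0.11), but passed with the replicate block (adjusted p = 0.037; 0.035 to 0.27 over the alternatives). Pdia3, the isomerase that works with the lectin chaperones, overlapped between groups (log2 change 0.10, 95% interval -0.05 to 0.25). The lectins Calr and Canx, which hold glycoproteins during folding, averaged 13.46 and 13.28 with PDGF-BB, against 13.27 and 13.19 in controls. Their groups did not overlap, and neither was called, at log2 changes of 0.19 (95% interval 0.05 to 0.34) and 0.09 (-0.05 to 0.23). Calr passed with a variance trend and without control array 1 (adjusted p 0.042 to 0.19 over the alternatives).

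The 7 ERAD genes had a median log2 change of 0.06, the lowest of the roles in the arm. Only Derl2, a channel component through which misfolded proteins leave the ER, rose, at 10.92, 10.90 and 10.99 with PDGF-BB and 10.72, 10.72 and 10.63 in controls (1.19-fold, adjusted p = 0.024, limma). That call was lost with the replicate block (adjusted p = 0.053) and without any 1 array except control array 1 (0.018 to 0.075 over the alternatives). Edem1, a mannosidase-like protein that marks glycoproteins for disposal, had a larger change with overlapping groups, at 11.96, 11.74 and 12.07 with PDGF-BB and 11.78, 11.29 and 11.45 in controls (log2 change 0.42, adjusted p = 0.079). It passed with the replicate block (adjusted p = 0.027; 0.019 to 0.21 over the alternatives). Sel1l and Syvn1, the adaptor and the ubiquitin ligase HRD1 of the central ERAD complex, had log2 changes of -0.04 (95% interval -0.25 to 0.18) and 0.12 (-0.05 to 0.28). Herpud1, which assembles that complex, and Derl1 changed by -0.02 (-0.25 to 0.21) and 0.06 (-0.09 to 0.21). Derl3, the third derlin, was dim at 7.67 ± 0.08 with PDGF-BB and 7.66 ± 0.07 in controls (SD, n = 3 each), close to the background level of 7.54, so a change there may go unseen.

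Rises were set beside the ERSE and CARE matches. Among the chaperone and ERAD genes with a promoter, 4 of the 9 with an ERSE match rose (Hspa5, Dnajc3, Pdia6 and Creld2) and 3 of the 9 without an ERSE match did, and the difference was not tested. The other 5 with an ERSE match were Hsp90b1, Calr, Canx, Syvn1 and Derl3. Of the 9 genes without an ERSE, Dnajb11, which rose, and Herpud1, which was not called, hold the shorter ERSE-II. In the ATF4 arm 2 of 4 genes with a CARE match rose (Asns and Trib3), and 5 of the 7 without one in the promoter window. Sequence outside that window was not searched for either motif.

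The 2 arms were set against each other on each array by the mean of their members, each taken relative to its control mean. For the ATF4 arm this mean was 0.43, 0.40 and 0.50 on the PDGF-BB arrays and 0.08, -0.08 and -0.00 on the control arrays. For the chaperone and ERAD arm it was 0.26, 0.27 and 0.34 with PDGF-BB and 0.14, -0.07 and -0.07 in controls. Neither arm overlapped between the groups. The ATF4 arm minus the chaperone and ERAD arm was 0.16, 0.12 and 0.15 with PDGF-BB and -0.06, -0.01 and 0.06 in controls, a difference of 0.15 log2 units in favour of the ATF4 arm with PDGF-BB, given without a test because the genes were listed with results of these data known.

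The members of each arm varied widely. Changes in the ATF4 arm averaged 0.44 with an SD of 0.49 over its 11 genes, and those in the chaperone and ERAD arm 0.29 with an SD of 0.26 over 21 genes. The difference between the arm means depended on single genes: with Asns left out it was 0.06, and with Ppp1r15a left out it was 0.24, the lowest and highest values when each gene was left out in turn. Of the 21 chaperone and ERAD genes 5 had a log2 change above 0.50, the median of the ATF4 arm. The ATF4 arm held the largest rise and the only fall of the 36 genes, whereas chaperone and ERAD changes ran from -0.04 to 0.75.

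**Figure D4:**
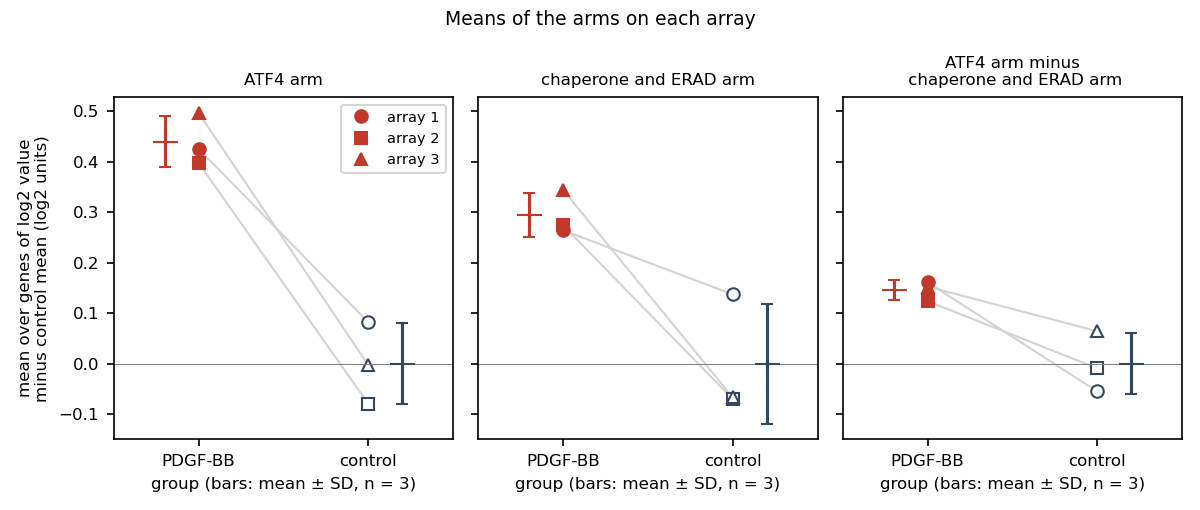
Mean over the genes of each arm on each array, relative to the control mean of each gene (y axis, log2 units), for the ATF4 arm, the chaperone and ERAD arm and their difference; lines join arrays of the same replicate number and bars give the mean ± SD (n = 3). The PDGF-BB arrays lie above all control arrays in each panel, and control array 1 stands above the other controls in the chaperone and ERAD arm.

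Control array 1 stood apart by its levels in the chaperone and ERAD genes. It was the highest of the 3 control arrays for 17 of these 21 genes, and for 7 of the 11 ATF4 arm genes, whereas over all named genes it was the highest for 31.5%. Between arrays of the same number, the mean difference of the chaperone and ERAD arm was 0.13, 0.34 and 0.41 in pairs 1, 2 and 3, and that of the ATF4 arm 0.34, 0.48 and 0.50. Without control array 1, 12 rather than 9 chaperone and ERAD genes were called, Calr, Pdia4 and Edem1 being added. Without any other array the count was 5, after the loss of Dnajc3, Sdf2l1, Pdia6 and Derl2. Over all named genes, 4342 were called with all arrays, 4219 without control array 1, and 2934 to 3260 without any other array. A higher count without control array 1 than without another array was thus not particular to this arm. A count above that with all arrays was seen in this arm (12 against 9) and not over all named genes (4219 against 4342).

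Further genes of the same pathways, from lists that overlap none of the 36, gave the setting of these changes. These lists too were chosen with earlier results of these data known, so their counts are described without a test. Of 34 measured ATF4 targets outside the list, such as amino acid transporters, serine and one-carbon enzymes and aminoacyl-tRNA synthetases, 24 rose and 2 fell, with a median log2 change of 0.59, against -0.02 over all genes. Among all genes 10.1% rose and 11.4% fell. Slc7a11, the cystine importer, read 9.62, 10.24 and 9.46 with PDGF-BB against 6.79, 6.75 and 6.62 in controls, which lie under the background level. Against that level it rose at least 4.72-fold (adjusted p = 5.0e-04, limma). Chac1, which degrades glutathione and in human and mouse cells is induced through ATF4 and CHOP, read 10.55, 10.38 and 10.33 with PDGF-BB and 9.19, 9.09 and 9.11 in controls (2.44-fold, adjusted p = 4.7e-04). The 2 that fell were the transporters Slc7a3, with a PDGF-BB mean under the background level (log2 change -0.33, adjusted p = 0.013), and Slc38a2, at 13.43 ± 0.03 with PDGF-BB and 13.67 ± 0.05 in controls (1.18-fold lower, adjusted p = 0.023).

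Of 12 measured eIF2α kinases, phosphatase subunits and related factors, 5 rose and 0 fell, beside 10.1% rising and 11.4% falling over all genes. They were Eif2ak2, the only kinase of this list that rose, Ppp1r15b, and the exchange factor subunits Eif2b1, Eif2b2 and Eif2b3. Eif2ak2, the double-stranded RNA kinase PKR, which is also an interferon target, rose 2.40-fold, at 11.25, 11.39 and 11.12 with PDGF-BB and 9.88, 10.33 and 9.76 in controls (adjusted p = 0.0025, limma). Eif2b2 and Eif2b3, subunits of the exchange factor that phosphorylated eIF2α inhibits, rose 1.26-fold and 1.30-fold. The kinase GCN2 for amino acid shortage, encoded by Eif2ak4, overlapped between the groups, with a 95% interval of -0.28 to 0.28 for its log2 change.

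Other ER folding and redox genes held 7 that rose of 31 and none that fell (median log2 change 0.23), beside 10.1% rising and 11.4% falling over all genes. Uggt1, which re-glucosylates unfolded glycoproteins, rose 1.41-fold, Hspa13, an Hsp70 relative, 1.43-fold, Dnajc10, an ER reductase, 1.51-fold, and Fkbp2, a prolyl isomerase, 1.66-fold (adjusted p = 0.0031 to 0.0085, limma). Genes of the translocon and of N-glycan transfer, through which proteins enter the ER, gave 10 rises of 30 and no fall (median 0.21). The same 10.1% and 11.4% of all genes apply here. Sec11c, a signal peptidase subunit, rose 1.75-fold, Rpn2 and Tusc3 of the oligosaccharyltransferase 1.31-fold and 1.30-fold, and Ssr2 of the translocon 1.29-fold. Among 24 other ERAD genes there were 4 rises and 3 falls, with a median of 0.01, against 10.1% rising and 11.4% falling over all genes, so that these counts lie near the background. Ube2g2, a ubiquitin-conjugating enzyme, and Nploc4, a cofactor of the extraction ATPase, rose 1.41-fold and 1.18-fold. Herpud2 and the lectin Os9 were 1.30-fold and 1.18-fold lower.

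Cytosolic heat shock genes likewise held 3 rises and 3 falls among 16 (median 0.08), again beside 10.1% and 11.4% of all genes. Hspa4l and Stip1 rose 2.60-fold and 1.33-fold, and Cryab, the small heat shock protein αB-crystallin, and Dnaja1 were 1.94-fold and 1.42-fold lower. Of 13 mitochondrial chaperones and proteases 3 rose and 1 fell (median 0.13), and counts this small are not read as a result about either list. Hspd1 and Hspa9, the mitochondrial Hsp60 and Hsp70, rose 1.58-fold and 1.44-fold, and Clpx, an unfoldase, was 1.23-fold lower.

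**Figure D5:**
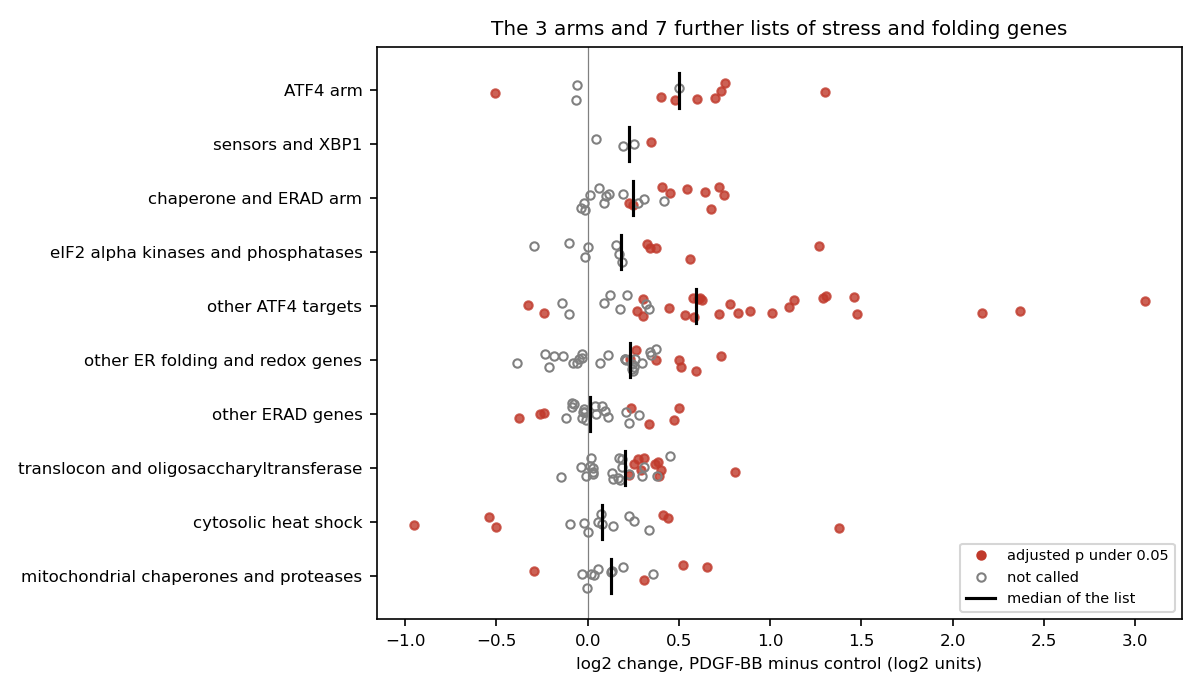
Log2 change with PDGF-BB relative to control (x axis, log2 units) of each measured gene in the 3 arms and in 7 further lists, with the list median as a black bar; filled red points passed at an adjusted p under 0.05 in the limma fit (n = 3 each), and vertical scatter has no meaning. In the ATF4 target list Slc7a11 is drawn at its measured difference of 3.06, although its control values lie under the background level, and the other ERAD genes centre at 0.01.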

How the data were processed

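The authors deposited a table of log2 values with 21225 probe sets, and the submitters' processing notes name RMA, which subtracts background, quantile-normalizes and sums up probes into probe sets. Its version and filters were not stated. The values ran from 4.08 to 14.2. Quantile normalization hides any change in total RNA. The 20239 probe sets with 1 symbol were tested and 986 without were left out. No detection calls were used, and the number of arrays limits the precision.

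The deposited log2 values were fitted with limma 3.58.1 in R 4.3.3 (lmFit, eBayes, two-sided, no covariate, 3 PDGF-BB against 3 control arrays), with Benjamini-Hochberg adjustment over 20239 genes. The code was tested on simulated data.

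Members and lists were chosen with earlier results of these data known. Of 279 genes in all lists, 259 were matched, 3 through a RefSeq synonym; the others are not analysed here. All members are named; from each further list, up to 4 genes with the smallest p were, up to 2 in each direction where calls went both ways. Eif2ak4, Eif2b1 and the markers are named beyond that rule.

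Arrays 1, 2 and 3 of the groups deviated together (correlation across genes of deviations from the group mean 0.25, 0.32 and 0.25), which was taken as pairing. The labels do not state a pairing. Unless stated otherwise, the calls, intervals and adjusted p-values given are from the fit without it. The fit with the number as a block is printed where it changes a call. Alternatives were that block, repeated quantile normalization, median centring, a variance trend with robust prior, a 50th percentile filter, all probe sets, and leaving out each array.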

Additional observations from a re-analysis of the deposited data

How the results depend on the processing

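Of the 18 calls among the 36 genes, 13 held under all alternatives in which the gene was tested and 15 under all such that kept the 6 arrays (Trib3, counted in both, was not tested under the 50th percentile filter), and no called gene changed direction. The count of called members was 13 to 21 and that of the ATF4 arm 7 to 9. The count in the chaperone and ERAD arm was 5 to 12 when 1 array was left out, 12 without control array 1 and 5 without each of the others. All of these fits had 1 array fewer. Over all named genes, too, more were called without control array 1 (4219) than without any other array (2934 to 3260). Why control array 1 differs was not tested. The median log2 change of the ATF4 arm was 0.45 to 0.60 when 1 array was left out, and that of the chaperone and ERAD arm 0.20 to 0.27. The difference between the arm means was 0.10 to 0.18 over all alternatives, lowest when genes under the 50th percentile of signal, Trib3 and Derl3 among them, were left out. With the replicate number as a block, 19 members and 4741 of all genes were called (18 and 4342 without it); Ddit3, Pdia4 and Edem1 were gained, Dnajc3 and Derl2 lost, and no other call among the 36 genes changed. Calls that differed under other settings with 6 arrays were those of Ddit4, Dnajc3, Hsp90b1, Calr and Ddit3, with adjusted p between 0.036 and 0.054. Over all named genes 2934 to 4741 were called.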
